A study of Mus musculus with 6 samples.

Results

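A set of 10 secreted growth factor and angiogenic genes were followed in RAW 264.7 cells, a mouse macrophage line transformed by a leukaemia virus: Igf1, the VEGF family genes Vegfa, Vegfb, Vegfc and Pgf, the PDGF chain genes Pdgfa and Pdgfb, Hbegf, Grn and Spp1. They were taken by symbol from a count table of 57010 genes, in which each of the 10 symbols had 1 row. The list counts as selected on the measured levels and fold changes between the treatments, which were known when it was drawn up. Those values, and the calls and intervals that the fit across all genes gave, are therefore a description. No test of the 10 genes as a set was run. Lipopolysaccharide, an inflammatory part of the outer membrane of Gram-negative bacteria, had been given to all cells first. In 3 samples (hypoxic-EV) the cells then received extracellular vesicles of tendon stem cells that had been preconditioned in hypoxia, and in 3 samples (normoxic-EV) vesicles of tendon stem cells kept in normoxia. No source used here gives the vesicle dose, the times or the species of the tendon stem cells, and cells without vesicles were not analysed here. Both groups share the stimulated background, so each difference compares vesicles with vesicles.

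Macrophages release growth factors that act on blood vessels, fibroblasts and other repairing cells. The VEGF and PDGF proteins are related dimers that bind receptor tyrosine kinases: VEGF-A drives blood vessel growth, VEGF-C acts chiefly on lymphatic vessels, and the PDGF chains attract and expand fibroblasts and mural cells. IGF-1 and HB-EGF are ligands of the IGF-1 receptor and of the EGF receptor family. Progranulin, the product of Grn, is a secreted and lysosomal glycoprotein, and osteopontin, the product of Spp1, is an integrin- and CD44-binding phosphoprotein that activated macrophages make in large amounts. Vegfa is a textbook target of the hypoxia-inducible factors, which bind the hypoxia response element.

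Promoter windows are shown for Igf1 and Vegfc, the members that differed most between the treatments, for Spp1, the most abundant, and for Vegfa, the hypoxia target that differed least. Each is the stretch of 250 bases before a RefSeq transcription start, read 5′ to 3′ on the gene's strand, in build GRCm38.p6. The windows lie at chr10:87860861-87861110 (plus strand), chr8:54077282-54077531 (plus strand), chr5:104434861-104435110 (plus strand) and chr17:46032378-46032627 (minus strand). Capitals mark matches, on either strand, to ACGTG or GCGTG, the cores of the hypoxia response element, or to TGANTCA. The last is a loose form of the AP-1 motif, with any base allowed at N.
Igf1: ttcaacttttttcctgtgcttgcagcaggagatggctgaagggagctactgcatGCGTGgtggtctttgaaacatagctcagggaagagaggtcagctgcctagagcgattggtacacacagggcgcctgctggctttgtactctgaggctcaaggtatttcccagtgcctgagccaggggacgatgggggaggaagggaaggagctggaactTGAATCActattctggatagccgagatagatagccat
Vegfc: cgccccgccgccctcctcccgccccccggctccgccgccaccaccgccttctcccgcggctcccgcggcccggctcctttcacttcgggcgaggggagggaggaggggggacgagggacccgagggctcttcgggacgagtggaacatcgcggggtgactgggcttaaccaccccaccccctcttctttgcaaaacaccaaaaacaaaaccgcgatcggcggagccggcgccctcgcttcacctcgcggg
Spp1: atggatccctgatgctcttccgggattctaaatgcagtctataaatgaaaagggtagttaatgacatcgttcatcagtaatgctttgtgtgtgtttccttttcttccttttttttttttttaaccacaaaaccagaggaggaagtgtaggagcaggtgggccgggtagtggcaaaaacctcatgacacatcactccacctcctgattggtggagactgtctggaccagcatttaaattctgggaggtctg
Vegfa: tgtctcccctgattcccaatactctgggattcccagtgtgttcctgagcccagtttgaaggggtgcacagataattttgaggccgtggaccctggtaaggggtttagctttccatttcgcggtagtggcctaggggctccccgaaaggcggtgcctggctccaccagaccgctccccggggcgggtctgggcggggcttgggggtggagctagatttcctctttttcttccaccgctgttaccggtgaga
The Igf1 window held 1 GCGTG, from base -196 to -192 before the start, and 1 TGANTCA, from -37 to -31. The latter reads TGAATCA, a match only to the loose form. The windows of Vegfc, Spp1 and Vegfa shown here held none of the 3 motifs. Bases farther upstream were not searched, so elements outside the windows would be missed. RefSeq lists a second start of Vegfa, whose window held GCGTG from -218 to -214 and the reverse complement of ACGTG from -211 to -207, with no shared base. That window, at chr17:46025164-46025413, lies downstream of the first start on the minus strand. Its letters may be exon sequence of the transcript from the first start, which was not tested. Its matches are therefore not shown to be promoter letters. Of the 10 genes, 8 had entries in the promoter table, 12 windows in all, and 5 of the 12 windows (1 each of Igf1, Pdgfa, Pgf, Vegfa and Vegfb) held ACGTG or GCGTG. That share is near the one over all 32851 windows in the table, of which 38.6% held one of these motifs and 6.75% held TGANTCA. A match describes the letters of a window and not a bound site. The windows of Vegfc and Vegfb were rich in G and C, at 71.6% and 76.4%. Those of Pdgfa (66.4% and 72.4%) and Pgf (68.4% and 66.4%) were so as well. The windows of Spp1 were at 43.6% and 35.6%, and the median over all windows was 52.4%.

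Library totals were 16751665, 19739483 and 23422328 counts in hypoxic-EV and 16788467, 17106509 and 22514707 counts in normoxic-EV. Nothing in the labels ties the samples to separate cultures: errors and p-values cover the spread between libraries, possibly only a technical one. The cells carried macrophage markers: 11 of 12 passed the count filter, of which 2 were called higher in hypoxic-EV and 7 lower. Among all genes tested, 22.7% were called higher and 21.5% lower. The summed level of the 12 markers was 9442, 9911 and 9897 CPM (counts scaled to library size, with TMM factors) in hypoxic-EV and 12201, 12315 and 11798 CPM in normoxic-EV. Most of the sum was Lyz2, the lysozyme gene, at 6091 ± 176 CPM in hypoxic-EV and 7946 ± 208 CPM in normoxic-EV (SD, n = 3). Csf1r, the receptor gene of macrophage colony-stimulating factor, went the other way, at 352 ± 13.4 CPM in hypoxic-EV and 174 ± 6.93 CPM in normoxic-EV (log2 fold change 1.02 with adjusted p = 6.93e-13 in edgeR). The groups did not overlap in that sum (exact two-sided permutation p = 0.1, the smallest that 3 against 3 allow), and the part of this difference in the values that follow was not tested. Mertk, the marker that did not pass the filter, had 7 counts in hypoxic-EV and 4 in normoxic-EV. Of 13 tendon and stromal markers none passed the filter, and their sum stayed between 0.868 and 1.87 CPM per library, with Tnmd, Col1a2 and Col3a1 at 0 counts. Of 10 endothelial markers 5 passed, and the summed level was 19.3 ± 0.975 CPM in hypoxic-EV and 23.4 ± 0.680 CPM in normoxic-EV, most of it from Vwf, with Emcn and Cldn5 at 0.

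All 10 growth factor genes passed the count filter. In the fit across all genes, edgeR's quasi-likelihood test called 3 of them higher in hypoxic-EV (Igf1, Hbegf and Vegfb), 3 lower (Spp1, Vegfc and Grn) and 4 in neither direction (Vegfa, Pgf, Pdgfa and Pdgfb). Over the 13303 genes tested the same rule, an adjusted p under 0.05 by Benjamini-Hochberg, called 44.2%, with 22.7% higher and 21.5% lower. The CPM values of the treatments did not overlap for 7 of the 10, against 52.8% of all genes tested. The median log2 fold change of the 10 was 0.18, and that of all genes tested was -0.001. Of the 10, Igf1 alone was called with a change of at least 2-fold, a size that 4.02% of the genes tested reached. Log2 fold changes below are hypoxic-EV over normoxic-EV, so a negative value means lower in hypoxic-EV.

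**Figure D1:**
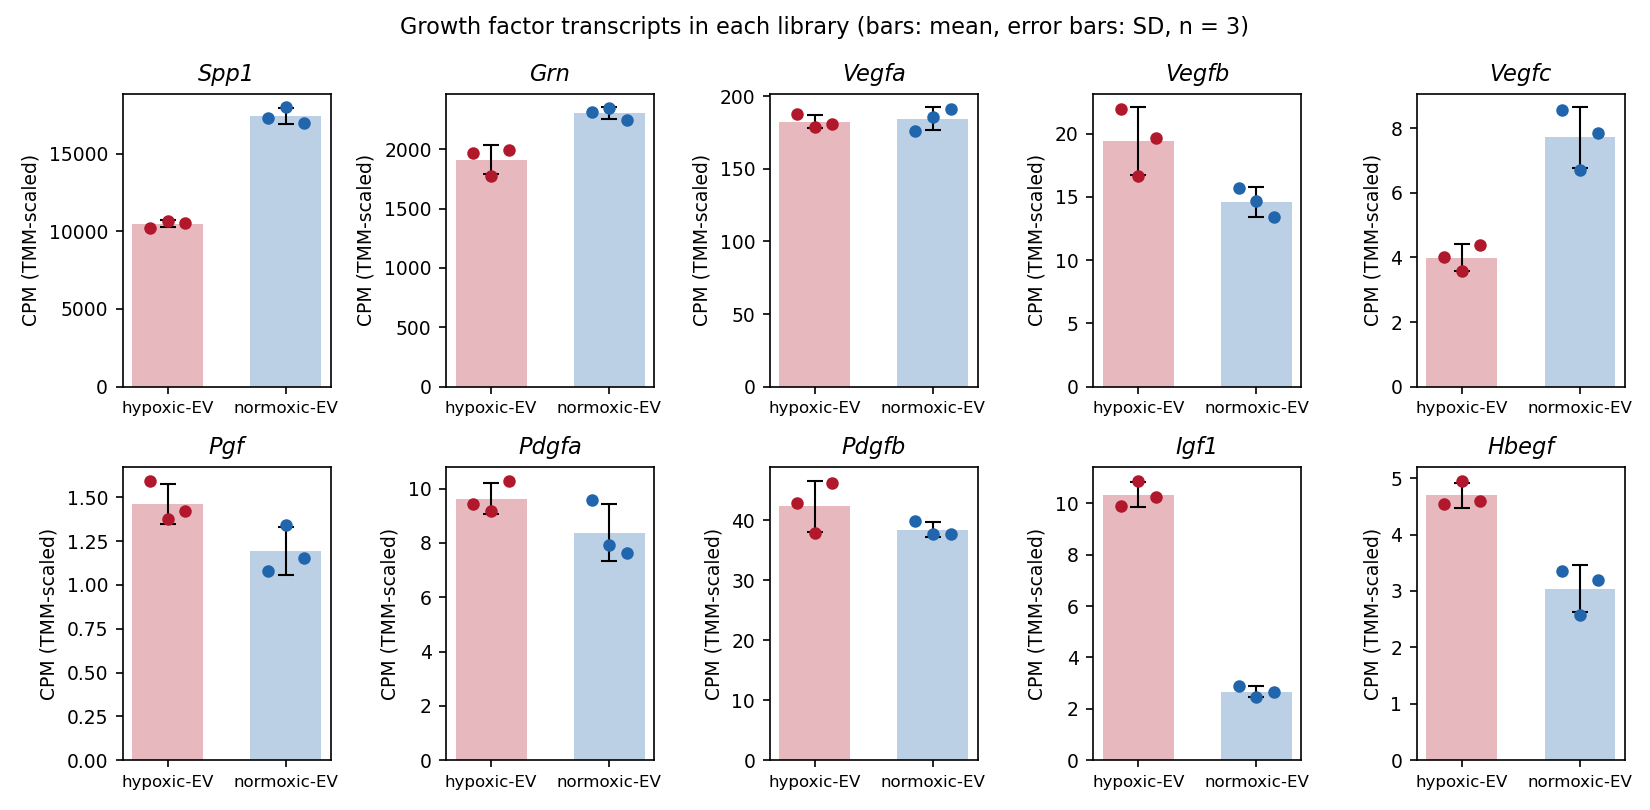
TMM-scaled CPM of the 10 growth factor genes, with a point for each library, bars at the mean and error bars of 1 SD (n = 3); each panel has its own linear axis from 0. Igf1, Hbegf, Vegfb and Pgf lay higher in all 3 hypoxic-EV libraries than in any normoxic-EV library, Spp1, Grn and Vegfc lay lower, and Vegfa, Pdgfa and Pdgfb overlapped.

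Igf1 encodes insulin-like growth factor 1, which promotes growth and survival of many cell types and which macrophages supply during tissue repair. The gene (ENSMUSG00000020053, chromosome 10, 87694127 to 87772904, plus strand, GRCm39) had 168, 213 and 238 counts in the hypoxic-EV libraries and 48, 42 and 60 counts in the normoxic-EV libraries. Scaled to library size, Igf1 stood at 9.91, 10.9 and 10.2 CPM in hypoxic-EV and at 2.87, 2.45 and 2.67 CPM in normoxic-EV. The lowest hypoxic-EV library was more than 3 times the highest normoxic-EV library. The fold change was 3.88-fold higher in hypoxic-EV (log2 fold change 1.96, SE 0.136), the rank 49 by absolute log2 fold change among the 13303 genes tested. Per length, Igf1 remained a weakly expressed transcript, at 1.04 ± 0.0411 FPKM in hypoxic-EV and 0.269 ± 0.0204 FPKM in normoxic-EV (SD, n = 3). Of the genes tested, 18.8% had a lower mean FPKM than Igf1 in hypoxic-EV and 4.95% in normoxic-EV. Igf1 was also the only one of the 10 genes in the authors' deposited table of 462 genes, each of which had an absolute log2 fold change above 1 there, and it is listed with a log2 fold change of 1.96.

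Hbegf encodes heparin-binding EGF-like growth factor, which is shed from the membrane and binds receptors of the EGF receptor family. The gene (ENSMUSG00000024486) was counted 77, 97 and 107 times in hypoxic-EV and 56, 44 and 72 times in normoxic-EV. These counts came to 4.54, 4.95 and 4.60 CPM in hypoxic-EV and to 3.35, 2.57 and 3.20 CPM in normoxic-EV. All hypoxic-EV libraries were above all normoxic-EV libraries, and the normoxic-EV values were more scattered (coefficient of variation 4.67% in hypoxic-EV and 13.6% in normoxic-EV). Hbegf was 1.54-fold higher in hypoxic-EV (log2 fold change 0.62, SE 0.16).

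The VEGF family did not move as a block. Vegfa (ENSMUSG00000023951, chromosome 17, 46327919 to 46343295, minus strand, GRCm39), the main angiogenic ligand of the family, was counted 3177, 3506 and 4209 times in hypoxic-EV and 2941, 3185 and 4305 times in normoxic-EV. Its level was 187, 179 and 181 CPM in hypoxic-EV and 176, 186 and 191 CPM in normoxic-EV. The hypoxic-EV values lay inside the range of the normoxic-EV values. The log2 fold change of Vegfa was -0.02 (SE 0.0474), with a 95% interval of -0.11 to 0.08. The sign of this small value turned without normoxic-EV replicate 3, where it was 0.015.

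Vegfb (ENSMUSG00000024962), whose product binds VEGFR1 and neuropilin 1 and is a weak inducer of vessel growth, stood at 22.0, 16.6 and 19.6 CPM in hypoxic-EV and at 15.7, 14.7 and 13.4 CPM in normoxic-EV. The groups did not overlap, although hypoxic-EV replicate 2 lay within 1 CPM of normoxic-EV replicate 1. Vegfb was 1.33-fold higher in hypoxic-EV (log2 fold change 0.41, SE 0.101). Pgf (ENSMUSG00000004791), encoding placental growth factor, another VEGFR1 ligand, had only 27, 27 and 33 counts in hypoxic-EV and 18, 23 and 26 counts in normoxic-EV. Its levels of 1.59, 1.38 and 1.42 CPM in hypoxic-EV and 1.08, 1.34 and 1.16 CPM in normoxic-EV came close without overlapping. Pgf was not called, and its 95% interval, from -0.22 to 0.81 on the log2 scale, was the widest of the 10.

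Vegfc (ENSMUSG00000031520, chromosome 8, 54530641 to 54640131, plus strand, GRCm39), the lymphatic growth factor gene, was counted 68, 70 and 102 times in hypoxic-EV and 143, 115 and 177 times in normoxic-EV. It fell to 4.01, 3.57 and 4.39 CPM in hypoxic-EV, against 8.55, 6.71 and 7.87 CPM in normoxic-EV. No library of hypoxic-EV reached the lowest value of normoxic-EV. Vegfc was 1.92-fold lower in hypoxic-EV (log2 fold change -0.94, SE 0.142). Vegfa and Vegfc thus stood further apart in hypoxic-EV, where Vegfa averaged 42.5 FPKM and Vegfc 1.63 FPKM, than in normoxic-EV, where they averaged 43.0 and 3.14 FPKM.

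Neither PDGF chain gene was called. Pdgfa (ENSMUSG00000025856), which encodes the A chain, stood at 9.44, 9.19 and 10.3 CPM in hypoxic-EV and at 9.57, 7.94 and 7.64 CPM in normoxic-EV. Normoxic-EV replicate 1 alone overlapped the hypoxic-EV values, and the log2 fold change was 0.21 (SE 0.117, 95% interval -0.03 to 0.45). The gene body of Pdgfa overlaps that of 6330403L08Rik on the opposite strand, whose total count amounted to 44.9% of that of Pdgfa and whose log2 fold change was 0.05 (SE 0.167). Pdgfb (ENSMUSG00000000489), which encodes the B chain, stood at 42.8, 37.8 and 46.2 CPM in hypoxic-EV and at 39.8, 37.7 and 37.7 CPM in normoxic-EV. Its log2 fold change was 0.14 (SE 0.0716, 95% interval -0.008 to 0.29). The call of Pdgfb depended on hypoxic-EV replicate 2, the lowest of its group: without it the log2 fold change was 0.219 and lay past the threshold of the fit.

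Spp1 and Grn were by far the most abundant members. Spp1 (ENSMUSG00000029304, chromosome 5, 104582984 to 104588916, plus strand, GRCm39) had 173250, 208715 and 244979 counts in hypoxic-EV and 289100, 307646 and 382144 counts in normoxic-EV. That was 1.05 ± 0.0116% of all counts in hypoxic-EV and 1.74 ± 0.0527% in normoxic-EV (SD, n = 3). By counts Spp1 ranked 3 of all genes in each hypoxic-EV library and 1 in each normoxic-EV library. Scaled to library size it fell to 10224, 10653 and 10542 CPM in hypoxic-EV, against 17295, 17962 and 16981 CPM in normoxic-EV. The highest hypoxic-EV library was far below the lowest normoxic-EV library, and the spread within a group was small (coefficient of variation 2.13% in hypoxic-EV and 2.88% in normoxic-EV). Spp1 was 1.66-fold lower in hypoxic-EV (log2 fold change -0.73, SE 0.0469). In bulk RNA such as this, fewer expressing cells and less RNA per cell cannot be told apart.

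Grn (ENSMUSG00000034708, chromosome 11, 102321141 to 102327874, plus strand, GRCm39) had 1969, 1775 and 1995 CPM in hypoxic-EV, against 2315, 2345 and 2249 CPM in normoxic-EV. The groups did not overlap, and hypoxic-EV replicate 2 was the lowest library. Grn fell by 0.27 on the log2 scale (SE 0.0502), the smallest change among the 6 called members, and was 1.20-fold lower in hypoxic-EV. Over the whole fit, the median absolute log2 fold change of called genes was 0.36.

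**Figure D2:**
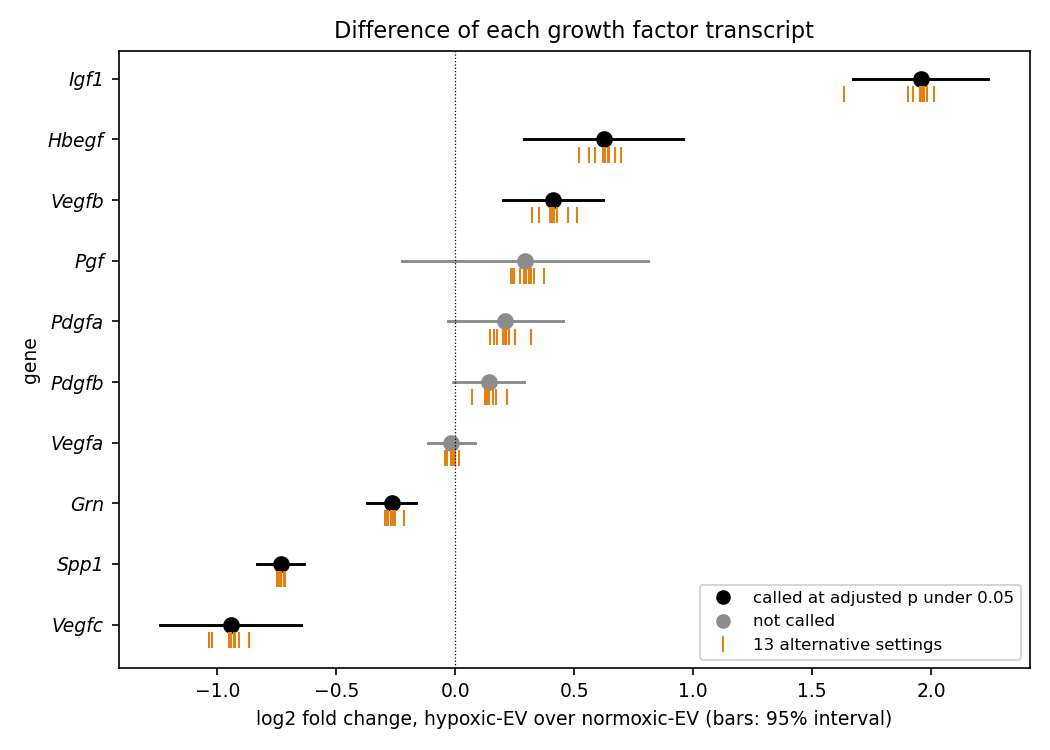
Log2 fold change of each growth factor gene, hypoxic-EV over normoxic-EV, with its 95% interval (horizontal bar), black where the fit across all genes called the gene and grey where it did not; orange ticks are the values under the 13 alternative settings. Igf1 stands alone on the right at 1.96, Vegfc and Spp1 lie farthest to the left at -0.94 and -0.73, and Vegfa sits on 0.

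Members with few counts had the widest errors. The SE of the log2 fold change was 0.0469 for Spp1, 0.0474 for Vegfa and 0.0502 for Grn, each with 2941 counts or more in every library. Among these it did not shrink further with depth. It was 0.142 for Vegfc, 0.16 for Hbegf and 0.248 for Pgf, the gene with the fewest counts.

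Levels of different genes were set side by side as FPKM, fragments per kilobase of gene length, scaled to library size by the authors. In hypoxic-EV the order was Spp1 (6346 ± 70.2 FPKM), Grn (550.1 ± 37.3), Vegfa (42.5 ± 1.50), Vegfb (12.1 ± 1.77), Pdgfb (10.1 ± 1.03), Pdgfa (3.09 ± 0.175), Vegfc (1.63 ± 0.167), Igf1 (1.04 ± 0.0411), Hbegf (0.971 ± 0.0397) and Pgf (0.504 ± 0.0450). In normoxic-EV the order was Spp1 (10554 ± 320 FPKM), Grn (662 ± 14.5), Vegfa (43.0 ± 1.91), Pdgfb (9.22 ± 0.272), Vegfb (9.09 ± 0.720), Vegfc (3.14 ± 0.371), Pdgfa (2.68 ± 0.325), Hbegf (0.628 ± 0.0842), Pgf (0.410 ± 0.0481) and Igf1 (0.269 ± 0.0204, SD, n = 3 each). Igf1, the last of the 10 in normoxic-EV, stood above Hbegf and Pgf in the mean of hypoxic-EV. This order rests on the lengths behind FPKM, 9904 bases for Igf1 and 2903 bases for Pgf. By CPM, Igf1 was above Pgf in normoxic-EV as well, at 2.66 against 1.19 CPM. Neighbours whose libraries overlapped were Vegfb with Pdgfb and Igf1 with Hbegf in hypoxic-EV, and Pdgfb with Vegfb and Vegfc with Pdgfa in normoxic-EV. Spp1 was 11.5 times Grn in hypoxic-EV and 15.9 times in normoxic-EV.

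**Figure D3:**
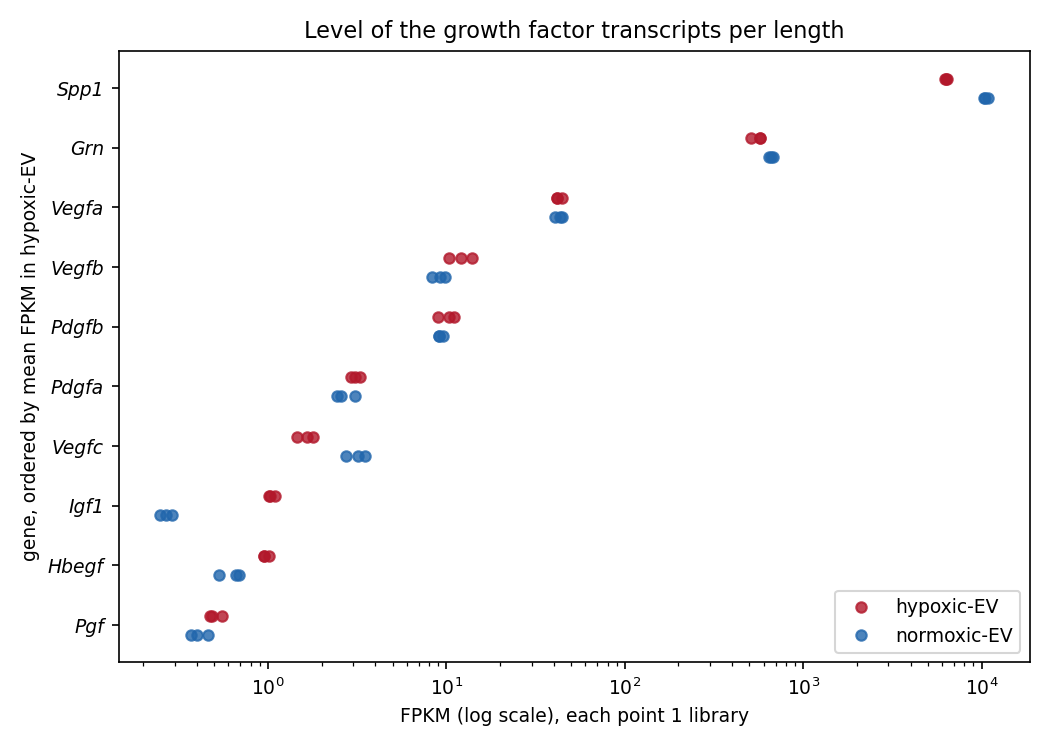
FPKM of the 10 growth factor genes on a log scale, with a point for each library, hypoxic-EV above normoxic-EV in each row, ordered by the mean in hypoxic-EV. The levels span from 0.504 (Pgf) to 6346 FPKM (Spp1) in hypoxic-EV, and Igf1 is the row whose groups stand farthest apart.

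Spp1 made up 91.1 ± 0.619% of the summed FPKM of the 10 genes in hypoxic-EV and 93.5 ± 0.0825% in normoxic-EV, and Grn 7.90 ± 0.560% and 5.87 ± 0.0683% (SD, n = 3). The other 8 genes together held between 67.7 and 75.7 FPKM in hypoxic-EV and between 68.1 and 69.0 FPKM in normoxic-EV, ranges that overlap. The changes of Igf1, Hbegf, Vegfb and Vegfc therefore left the sum of the 8, most of it Vegfa, with overlapping values.

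Genes around the members were read from 7 lists that were also drawn up with earlier results known, and counted in the same fit. Their counts stand against a background of 22.7% higher and 21.5% lower among all genes tested, and no list was tested against it. Of 23 receptor genes, 15 passed the filter, of which 7 were higher in hypoxic-EV, 4 lower and 4 not called (median log2 fold change 0.21, against -0.001 over all genes tested). Flt1, which encodes VEGFR1, the receptor of VEGF-A, VEGF-B and placental growth factor, rose to 2.18 ± 0.309 CPM in hypoxic-EV, against 1.05 ± 0.311 CPM in normoxic-EV (SD, n = 3, log2 fold change 1.03 with SE 0.254 and adjusted p = 0.00239 in edgeR). Its counts were low, at 31, 47 and 54 in hypoxic-EV and 17, 13 and 31 in normoxic-EV. Of the genes tested, only 2.76% had a lower mean FPKM in hypoxic-EV and 0.564% in normoxic-EV. Sort1, encoding the progranulin receptor sortilin, was higher by 0.44 on the log2 scale (adjusted p = 0.00157 in edgeR). Among osteopontin receptors, Cd44 stood at 492 ± 33.9 CPM in hypoxic-EV and 625 ± 17.8 CPM in normoxic-EV (log2 fold change -0.35 with SE 0.0511 and adjusted p = 1.14e-05 in edgeR). The fibronectin receptor gene Itga5, whose product can also bind osteopontin, had a log2 fold change of -0.35. Other integrin genes of osteopontin receptors, named after their values were seen, were called higher in hypoxic-EV, with log2 fold changes of 0.31 for Itgb5, 0.30 for Itga4, 0.21 for Itgav and 0.15 for Itgb1. Itgb3 was not called (log2 fold change 0.52), and Itga9 had 0 counts in hypoxic-EV and 2 in normoxic-EV. Igf1r, which encodes the main receptor of IGF-1 and is named here after its values were seen, was listed at 0 counts in all 6 libraries; at 3 counts, a count of 0 allows between 0.129 and 0.179 CPM, depending on the library. Irs2 and Gab1, adaptor genes of IGF-1 and other growth factor signalling, were listed at 0 as well, and whether the annotation or the counting left out reads of these genes was not tested. The insulin receptor gene Insr, also named after its values were seen, was well expressed, at 71.8 ± 2.75 CPM in hypoxic-EV and 82.3 ± 4.39 CPM in normoxic-EV (log2 fold change -0.20 with adjusted p = 0.00527 in edgeR). The other receptors named in what follows were also picked after their values were seen. Nrp2, encoding a neuropilin co-receptor of VEGF-C, stood at 903 ± 27.0 CPM in hypoxic-EV and 845 ± 22.1 CPM in normoxic-EV and was not called. Nrp1, encoding neuropilin 1, had a log2 fold change of 0.22, and Igf2r, whose product clears IGF-2, one of -0.24, both called. Kdr, encoding VEGFR2, had 0.864 CPM in hypoxic-EV and 0.547 CPM in normoxic-EV and was not called. The PDGF receptor genes Pdgfra and Pdgfrb had 8 and 12 counts in all in hypoxic-EV and 14 and 21 in normoxic-EV, below the filter, and Egfr had 2 in hypoxic-EV and 0 in normoxic-EV. The limit from a count of 0 covers counting error only.

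Of 8 listed IGF-binding protein genes, 2 passed the filter. Igfbp4, whose product binds IGF-1 and limits its access to receptors, rose to 43.6 ± 0.194 CPM in hypoxic-EV, against 15.8 ± 2.02 CPM in normoxic-EV (SD, n = 3, log2 fold change 1.46 with SE 0.0804 and adjusted p = 6.16e-12 in edgeR). Igf1 and Igfbp4 were thus both higher in every hypoxic-EV library than in any normoxic-EV library. Igfbp6, the other, was not called (log2 fold change -0.28). Of 27 other growth factor ligands, among them EGF, FGF and neuregulin genes, only 6 passed the filter and none was called by edgeR or by DESeq2, nor at an unadjusted p under 0.05.

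Of 15 tested proteases and partners that process the members (20 listed), 4 were higher, 6 lower and 5 not called (median -0.08), against the 22.7% higher and 21.5% lower among all genes tested. Ccbe1, whose product helps to activate VEGF-C, fell to 1.66 ± 0.428 CPM in hypoxic-EV, against 5.62 ± 0.542 CPM in normoxic-EV (SD, n = 3, log2 fold change -1.72 with adjusted p = 2.12e-07 in edgeR). Gm50143 overlaps Ccbe1 on the same strand with 242% of its count, so the reads of both could not be separated with certainty. Cd9, a tetraspanin gene whose product associates with the HB-EGF precursor, had a log2 fold change of 0.43, and the membrane protease gene Adam8 had -0.39. Pcsk7, a proprotein convertase gene, had 0.46 but overlaps Rnf214 on the other strand, at 159% of its count. Of 22 tested receptor signal transducers, 6 were higher, 3 lower and 13 not called (median 0.04), led by Spry2, a feedback inhibitor of receptor tyrosine kinase signalling, at -0.52, and Plcg2, Pik3cd and Sos1 at 0.44, 0.31 and 0.25.

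Of 12 tested genes of other angiogenic mediators, 6 were higher, 2 lower and 4 not called (median 0.25). Adm, encoding the vasodilator adrenomedullin, stood at 9.13 ± 0.689 CPM in hypoxic-EV and 2.18 ± 0.606 CPM in normoxic-EV (SD, n = 3, log2 fold change 2.08 with SE 0.166 and adjusted p = 1.94e-09 in edgeR). Edn1, encoding the vasoconstrictor endothelin 1, fell to 1.72 ± 0.478 CPM in hypoxic-EV, against 5.42 ± 1.56 CPM in normoxic-EV (log2 fold change -1.62 with adjusted p = 6.87e-06 in edgeR). Angptl4, a lipase inhibitor gene, had a log2 fold change of 1.01, and Ang, the angiogenin gene, 0.79, although Rnase4 overlaps Ang on the same strand with 503% of its count. Of 8 tested angiogenesis inhibitors, 1 rose, 1 fell and 6 were not called (median 0.36). The one that fell, the secreted protease gene Adamts1, stood at 5.63 ± 0.263 CPM in hypoxic-EV and 16.4 ± 2.94 CPM in normoxic-EV (log2 fold change -1.53 with SE 0.128 and adjusted p = 3.97e-09 in edgeR). The one that rose, Serpinf1, encoding pigment epithelium-derived factor (log2 fold change 0.44 with adjusted p = 0.0335 in edgeR), lost its call under DESeq2, under limma on FPKM and without hypoxic-EV replicate 1, hypoxic-EV replicate 3, normoxic-EV replicate 1 or normoxic-EV replicate 2, with edgeR adjusted p between 0.00426 and 0.157 over the 6 replicates left out.

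**Figure D4:**
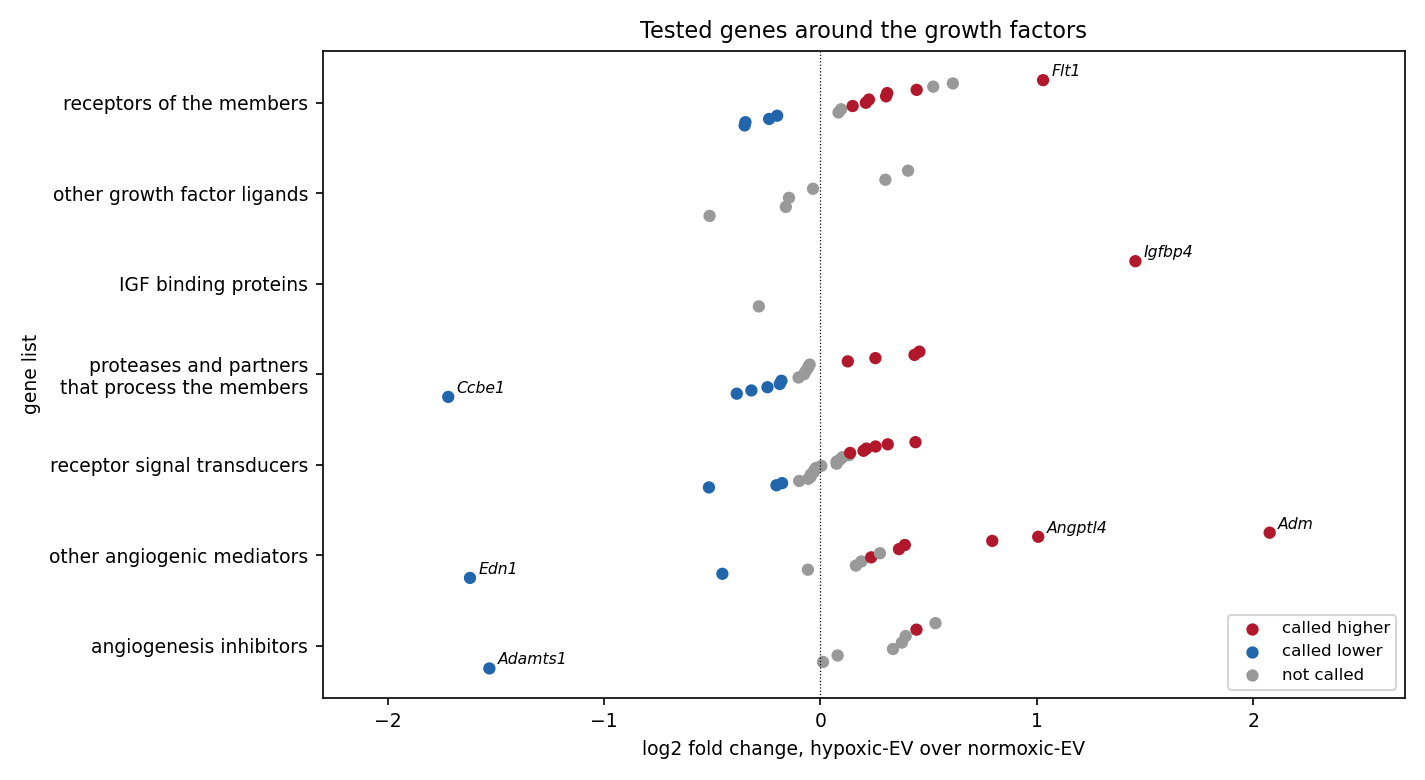
Log2 fold change, hypoxic-EV over normoxic-EV, of every tested gene in the 7 lists around the growth factors; red points were called higher, blue points lower and grey points not called, and genes with an absolute value of at least 1 are named. Most points lie within 0.5 of 0, with Adm, Igfbp4, Flt1 and Angptl4 to the right and Ccbe1, Edn1 and Adamts1 to the left.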

How the data were processed

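Poly(A) RNA of 6 samples of RAW 264.7 cells was sequenced in pairs on an Illumina HiSeq instrument, per the labels' protocols. Build GRCm39 and the tools HISAT2, featureCounts and DESeq2 are listed, with no versions, in the submitters' processing notes. No source used here gives the annotation, the strand setting or how multi-mapping reads were handled, so overlapping genes may share reads. Gene counts were deposited as whole numbers. They also deposited FPKM, which for all 26398 genes with a count equalled the count divided by library total and a fixed gene length within a relative tolerance of 1e-06. A gene counted in only 1 library passes this check by construction, and the lengths were not compared with an annotation. The deposited normalized counts, a signal per gene, were not used further. The authors' table of their comparison held log2 fold changes, a test statistic or score, p-values and adjusted p-values. Every sample column matched 1 sample's title.

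The test of the counts was run in edgeR 4.0.16 (R 4.3.3): filterByExpr (minimum count 10, minimum total count 15), TMM scaling, quasi-likelihood F-test, two-sided, Benjamini-Hochberg adjustment over 13303 genes. SE is the log2 fold change divided by the square root of F, and 95% intervals use the t quantile of the fit. Alternatives were DESeq2 1.42.0, RLE factors, library totals alone, other filters, limma 3.58.1 on log2(FPKM + 0.1), a replicate block and each library left out. Members and lists were chosen with earlier results of these data known. From each list the 4 called genes with the largest absolute log2 fold change and at least 1 CPM in the higher group were named. Of 179 symbols, members included, 178 matched 1 row, and Nrg1 had 2 identifiers, both at 0 counts. Promoters come from RefSeq (GRCm38.p6) and were matched by symbol, with no coordinate carried between builds.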

Additional observations from a re-analysis of the deposited data

How the results depend on the processing

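Of 130 values of the 10 growth factor genes under 13 alternatives each, 128 kept direction and call. The exceptions were Vegfa, at 0.015 without normoxic-EV replicate 3 (range over the libraries left out -0.042 to 0.015), and Pdgfb, called at 0.219 without hypoxic-EV replicate 2. The lowest log2 fold change of Igf1, 1.633, came from limma on log2(FPKM + 0.1), a scale that understates low genes. Counts of called genes stayed within 1.5 times the main count, except among angiogenesis inhibitors. There, calls of higher genes were 0 under DESeq2 and limma and between 0 and 1 over the 6 replicates left out, and calls of lower genes were 2 without the count filter and between 1 and 2 over the replicates left out; the cause was not tested. The share of Spp1 in the 10 genes was 82.7% in hypoxic-EV and 87.2% in normoxic-EV by CPM in place of FPKM, which removes the division by length. The replicate block changed no call of a member and gave 2910 higher and 2752 lower genes over all genes tested. Same-numbered libraries deviated with correlations of -0.02, -0.048 and -0.029, so no pairing by number was visible. Hypoxic-EV replicates 1, 2 and 3 had correlations of 0.096, 0.099 and 0.076 with normoxic-EV replicates 2, 3 and 1. The remaining pairs lay between -0.078 and -0.048, and what these values mark was not tested. Whether equal numbers mark a shared culture or batch cannot be told from these values. Depth limits Pgf most, with 18 to 33 counts per library.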
